A study of Homo sapiens with 8 samples.

Results

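The integrin and laminin subunit genes of SW1990 cells were described here, in RNA-seq of control cells and of cells labelled as a PAF1 CRISPR knockdown. SW1990 is an established cell line of human pancreatic ductal adenocarcinoma. The members were all protein-coding genes whose symbols name an integrin alpha or beta subunit or a laminin alpha, beta or gamma chain. The rule found 38 genes, 26 integrins and 12 laminins, among the 60483 genes of the count table, and used no expression value. All 38 were in GENCODE release 29 on GRCh38.

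Integrins are cell surface receptors made of 1 alpha and 1 beta subunit. The alpha subunit largely sets which matrix protein is bound, and the beta subunit carries the tail that links to the cytoskeleton or, for beta4, to keratin filaments. Laminins are secreted trimers of an alpha, a beta and a gamma chain, and they form the sheet that polymerises in every basement membrane. In carcinoma of the pancreatic duct, laminin-332 and its receptors, alpha3beta1 and alpha6beta4, are well known products of the tumour cells.

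By their labels, all 8 samples are side population cells, which pump out a dye that stains DNA. They form a control group and a PAF1 CRISPR knockdown group, with 2 libraries each, and each library was sequenced on 2 lanes, which were summed. PAF1 is a subunit of a complex that travels with RNA polymerase II; the labels give no guide, clone, time after editing or treatment, and do not say whether the control cells carried an editing construct. The column names did not carry the library numbers of the titles. A single name per group starts with SP and the other has no such start, hence the terms SP-prefixed and unprefixed. The labels do not settle whether the unprefixed libraries hold side population cells. The word CRISPR was missing from the name of the unprefixed control only. The labels do not state separate cultures for the 2 libraries of a group. A p-value here thus reflects only how far these libraries vary, and that spread may be technical.

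Total counts were 17234973 to 22348416 per library. PAF1 mRNA stood at 55.2 and 43.9 CPM (counts scaled to a common library size) in the unprefixed and SP-prefixed controls, and at 41.7 and 44.4 in the unprefixed and SP-prefixed libraries labelled as knockdown. The groups overlapped (log2 difference −0.20 ± 0.16 SE, adjusted p = 0.663, edgeR with Benjamini-Hochberg adjustment, n = 2 and 2). PAF1 mRNA therefore did not check the labels, and the second group is called the libraries labelled as knockdown. The SP-prefixed control lay farthest from the others: over all tested genes its median absolute log2 difference was 0.225 to 0.257 from each other library, against 0.153 between the pair labelled as knockdown. The 7 ductal carcinoma line markers, such as KRT19 and EPCAM, summed to 5530 to 6923 CPM in each library. The 5 leukocyte markers summed to 2.64 and 1.05 CPM in the controls and to 1.10 and 0.263 CPM in the libraries labelled as knockdown. Platelet and muscle markers summed to at most 0.498 and 1.05 CPM, with PF4, GP9 and MYOG at 0. The 5 fibroblast markers summed to 36.4 to 45.6 CPM, with DCN at 0, and most of that was COL1A1, at 29.8 to 37.9 CPM. The 3 endothelial markers summed to 23.7 to 29.8 CPM, and most of that was CDH5, at 20.7 to 27.4 CPM.

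Of the 38 genes, 30 passed the filter on low counts, 19 integrins and 11 laminins. ITGA4 and ITGA8 had no count in any library, where the floor of 3 counts lies at 0.132 to 0.174 CPM. ITGA9, ITGAD, ITGAL, ITGAM, ITGB3 and LAMA1 were too low to test, with at most 0.521 CPM, reached by LAMA1. ITGAL and ITGAM are the alpha chains of leukocyte integrins, ITGB3 is the beta chain of the platelet receptor and of alphavbeta3, and LAMA1 is the alpha chain of laminin-111. Another 9 genes passed the filter with low levels: ITGA1, ITGA2B, ITGA7, ITGA10, ITGA11, ITGAX, LAMA2, LAMB4 and LAMC3. They ranged from 0.299 CPM, in LAMB4, to 5.95 CPM, in ITGA1. Values below are given in the order unprefixed control, SP-prefixed control, unprefixed library labelled as knockdown, SP-prefixed library labelled as knockdown. Since RNA came from bulk cells, fewer cells that express a gene and less RNA per cell cannot be told apart.

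The levels of the subunits were first compared within each library, as CPM per kilobase of exon, so that genes of unequal length stand on 1 scale. The length was the exon length that the count table gives for a gene, and the transcripts in use were not determined. Ratios between genes rest on that length. Among the alpha subunits the laminin receptors ITGA6 and ITGA3 led, with means of 157 (136 to 180 over the 4 libraries) and 127 (115 to 138). Their ranges overlapped. ITGA2, the alpha chain of a collagen receptor, followed at 45.0 (39.4 to 51.7), and ITGAV, which binds RGD motifs in vitronectin and latent TGF-beta, at 27.9 (23.5 to 33.1). ITGA5, the fibronectin receptor, stood at 5.50 and ITGAE, the alpha chain that pairs with beta7 to bind E-cadherin, at 2.04. The laminin-binding alpha chains ITGA3, ITGA6 and ITGA7 together made up 79.7%, 78.3%, 75.7% and 76.9% of the summed alpha level. Nearly all of that share was ITGA6 and ITGA3.

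Of the beta subunits, ITGB1, the shared partner of most alpha chains, had a mean of 323 CPM per kilobase and ITGB4, the partner of alpha6 in hemidesmosomes, a mean of 269. ITGB6, which activates latent TGF-beta with alphav, came next at 28.8. ITGB5 stood at 6.83, ITGB2 at 5.36, ITGB8 at 2.00 and ITGB7 at 1.25. ITGB1 made up 47.9%, 46.1%, 56.6% and 52.7% of the summed beta level, and ITGB4 43.8%, 47.4%, 36.3% and 41.5%. Both libraries labelled as knockdown had a higher ITGB1 share and a lower ITGB4 share than both controls. Both are parts of the same sum, so these shares are not independent. ITGB1 itself stood at 304, 309, 371 and 307 CPM per kilobase, with overlapping groups, and ITGB4 at 278, 317, 238 and 242. The percentages are shares of RNA per length, not of receptors on the cell surface.

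Among the laminin beta chains LAMB3, a chain of laminin-332, was the most abundant. On the same scale it had a mean of 210, above LAMB1 at 49.3 and LAMB2 at 26.3, and the gamma chain LAMC1 had a mean of 65.2. Of the alpha chains, LAMA5 (66.2) and LAMA3 (65.0) could not be ordered, since their ranges overlapped, and LAMA4 was lower at 9.25. LAMB3 stood at 3.10, 4.51, 2.84 and 2.69 times LAMA3, and the SP-prefixed control was the high one.

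**Figure D1:**
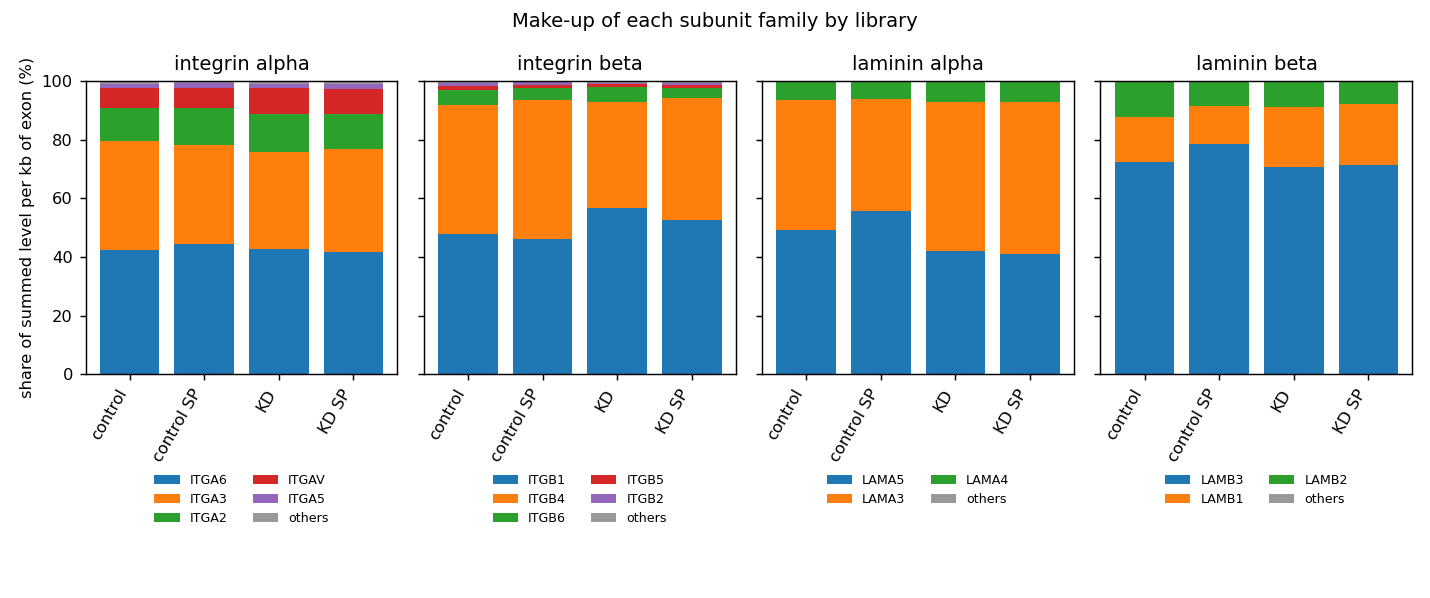
Share of each subunit in the summed level per kilobase of exon (percent, vertical axis) in the 4 libraries (control, unprefixed control; control SP, SP-prefixed control; KD and KD SP, the unprefixed and SP-prefixed libraries labelled as knockdown), drawn for integrin alpha and beta subunits and for laminin alpha and beta chains. ITGA6 with ITGA3, ITGB1 with ITGB4, LAMA5 with LAMA3, and LAMB3 hold most of their sides in all 4 libraries, and the ITGB4 share is 36.3% and 41.5% in the libraries labelled as knockdown against 43.8% and 47.4% in the controls.

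Groups were then compared with 2 fits of edgeR's quasi-likelihood test over 16417 genes. In the first, which had no other term, none of the 30 tested members passed an adjusted p of 0.05, as none of all genes did (0%). DESeq2, which gave no adjusted p for 4 of the 30, and limma-voom called none either. At an unadjusted p under 0.05 the edgeR test held 7 of the 30, against 11.2% of all genes. Of these, 4 had higher levels in the libraries labelled as knockdown (ITGB8, LAMA3 and LAMB1 among them), against 4.03% of all genes, and 3 had lower levels (ITGB2, ITGB7 and LAMB2), against 7.21%. In the second fit the name prefix was a term beside the group. That term was added with earlier results of these data known and left 1 residual degree of freedom. The second fit called 304 of 16417 genes, 1.85%, and 1 member, ITGB7, which was lower, as were 1.34% of all genes. At an unadjusted p under 0.05 that fit held 10 of the 30 members, against 15.1% of all genes.

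The 2 groups did not overlap for 16 of the 30 tested members, against 44.7% of all genes tested. The level was higher in the second group for 8 members (22.1% of all genes) and lower for 8 (22.6%). Among the 11 laminins 5 were higher and 2 lower, and among the 19 integrins 3 were higher and 6 lower. Where each library also carried its 95% Poisson counting interval, the groups stayed apart for 8 of 30, against 8.81% of all genes. These 8 were all among the 20 members at 10 CPM or more. Counting intervals are relatively narrower at high counts, and the share over all genes was not matched for level. ITGB8, LAMA3 and LAMB1 were among the higher ones, and ITGA3, ITGB2, ITGB4 and LAMB2 were the lower ones. The median log2 difference was 0.23 for the laminins and −0.07 for the integrins, beside −0.01 for all genes. In the unprefixed pair and the SP-prefixed pair the difference had opposite signs for 9 of 30 members, against 37.7% of all genes.

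**Figure D2:**
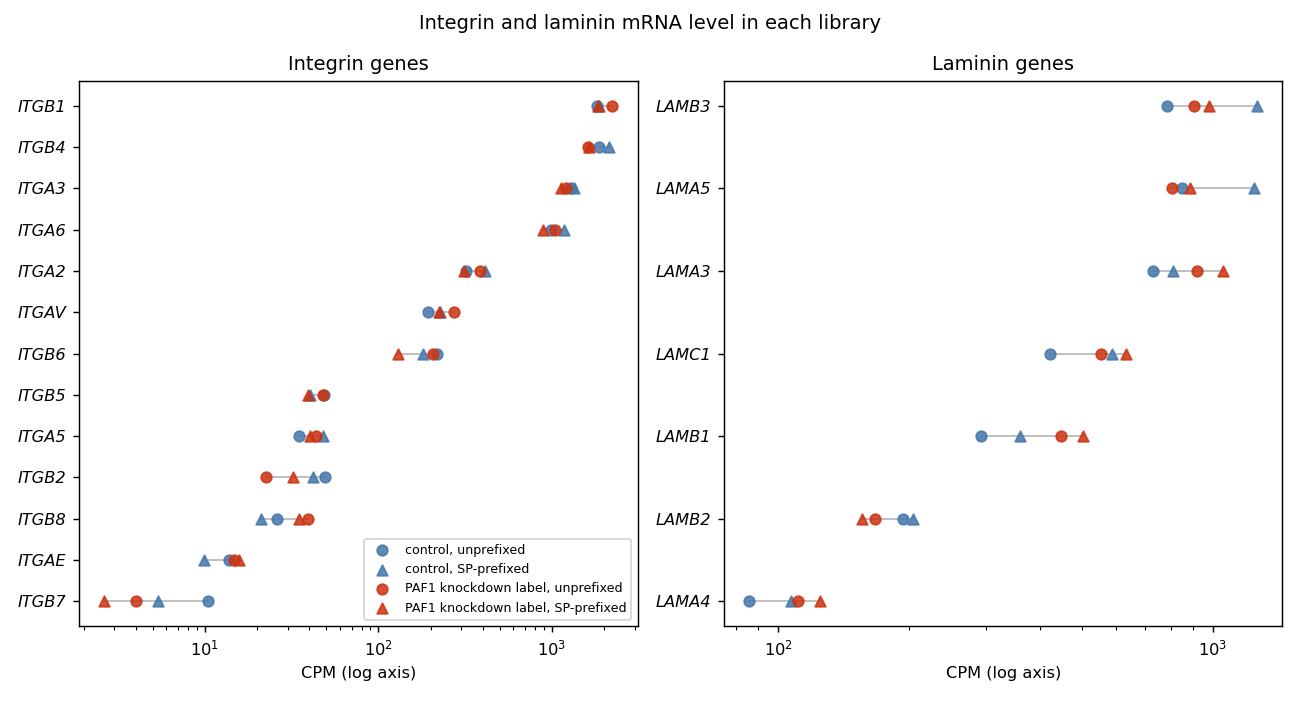
Levels in CPM (log axis) of 20 members in each of the 4 libraries, with controls and libraries labelled as knockdown in different colours and the prefix shown by the marker. The points span from 2.63 CPM for ITGB7 to 2231 CPM for ITGB1, and the 2 groups lie apart for LAMA3, LAMA4, LAMB1, ITGAE and ITGB8 (higher) and for ITGA3, ITGB2, ITGB4, ITGB7 and LAMB2 (lower).

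Laminin-332 is the anchor of epithelial cells to the basement membrane, and its alpha chain, LAMA3, had higher levels in both libraries labelled as knockdown. LAMA3 stood at 729, 809, 919 and 1056 CPM. Both controls were below both libraries labelled as knockdown. The log2 difference was 0.36 ± 0.14 (SE), with an adjusted p of 0.417 without the prefix term and 0.199 with it, in edgeR with Benjamini-Hochberg adjustment. Its beta chain, LAMB3, stood at 784, 1265, 904 and 983 CPM. The 2 groups overlapped for it, the SP-prefixed control being highest and the unprefixed control lowest, and its log2 difference was −0.12 ± 0.22 (adjusted p = 0.878, edgeR). Its sign differed between pairs, at 0.21 between unprefixed libraries and −0.36 between SP-prefixed ones.

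Promoter windows of LAMA3 and LAMB3 are printed because both chains belong to laminin-332 while the groups overlapped for LAMB3 and not for LAMA3. Windows run from 250 bases before to 50 after a gene start, 300 bases in all, and come from RefSeq on GRCh38.p14. The LAMA3 window is chr18:23872770-23873069 on the plus strand, at a start within the span that the count table gives for the gene (chr18:23689443-23955066). The LAMB3 window is chr1:209651325-209651624 on the minus strand, 1 of 3 windows of this gene. Capitals mark matches, on either strand, to the AP-1 motif TGANTCA or to the GC box GGGCGG.
LAMA3: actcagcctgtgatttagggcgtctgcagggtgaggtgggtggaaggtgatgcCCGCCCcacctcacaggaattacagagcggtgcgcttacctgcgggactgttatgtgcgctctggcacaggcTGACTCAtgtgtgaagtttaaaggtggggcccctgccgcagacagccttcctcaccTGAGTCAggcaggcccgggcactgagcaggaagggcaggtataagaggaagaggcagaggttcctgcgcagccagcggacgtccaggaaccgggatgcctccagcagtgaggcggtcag
LAMB3: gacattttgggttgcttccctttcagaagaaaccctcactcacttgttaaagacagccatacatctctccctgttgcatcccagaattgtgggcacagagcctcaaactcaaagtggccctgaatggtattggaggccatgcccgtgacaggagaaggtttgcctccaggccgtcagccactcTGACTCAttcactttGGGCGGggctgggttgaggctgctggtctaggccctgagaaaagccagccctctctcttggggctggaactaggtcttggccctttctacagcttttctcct
The LAMA3 window held the AP-1 letters at −125 and −69 bases from the start, counted to the first base of a match, and a GC box at −197, and the E-box letters CACCTG at −73 overlapped the AP-1 match at −69. The LAMB3 window held AP-1 letters at −67 and a GC box at −52, and the other two LAMB3 windows held a GC box each and no AP-1 letters. Of the 38 members 26 had windows, 33 in all. The AP-1 letters stood in 3 of these 33 windows (9.09%), those of LAMA3, LAMB3 and ITGA5, against 7.71% of all 35116 windows. GC boxes stood in 57.6% of member windows and 45% of all windows, CACCTG in 24.2% and 20.6%, and GGAATG, the letters bound by TEAD factors, in 12.1% and 14%. A match is a description of the letters in the window and not of binding. LAMA1, LAMC3, ITGA3, ITGA7, ITGA9, ITGAD, ITGAL, ITGAX, ITGB2, ITGB3 and ITGB4 had no entry.

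The chains of the other laminins had differences in both directions. LAMB1, the beta chain of laminin-111, laminin-411 and laminin-511, stood at 293, 361, 448 and 503 CPM, and both libraries labelled as knockdown were above both controls. It was 1.53-fold higher between unprefixed libraries and 1.40-fold between SP-prefixed ones, with a log2 difference of 0.54 ± 0.15. That was the largest difference among the laminins above 10 CPM, and its adjusted p was 0.294 without and 0.072 with the prefix term (edgeR). LAMB2, the beta chain of laminin-421 and laminin-521, stood at 194, 204, 167 and 155 CPM, lower without overlap, with a log2 difference of −0.31 ± 0.12 (adjusted p = 0.423, edgeR). The level of LAMB1 over that of LAMB2, per kilobase, was 1.27 and 1.49 in the controls and 2.26 and 2.73 in the libraries labelled as knockdown.

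LAMA5, the alpha chain of laminin-511 and laminin-521, stood at 848, 1245, 805 and 888 CPM. The groups overlapped, and the SP-prefixed control was above the other 3 libraries; the log2 difference was −0.31 ± 0.20 (adjusted p = 0.597, edgeR). LAMA3 over LAMA5, per kilobase, was 0.909 and 0.687 in the controls and 1.21 and 1.26 in the libraries labelled as knockdown. By the exon lengths of the count table, LAMA5 was thus the higher of the 2 chains in both controls. LAMA3 was the higher in both libraries labelled as knockdown. Which chain is the higher rests on those lengths. LAMA5 shares 244 exon bases, 1.71% of its exon length, with ADRM1 on the opposite strand. LAMA4, the alpha chain of laminin-411, stood at 85.7, 107, 111 and 125 CPM, higher in the second group by a narrow gap (0.29 ± 0.15, adjusted p = 0.527, edgeR). LAMC1, the gamma chain of laminin-111, laminin-411 and laminin-511, stood at 422, 586, 552 and 631 CPM with overlap (0.23 ± 0.18, adjusted p = 0.669, edgeR). LAMA2, the alpha chain of muscle laminin, stood at 1.90, 2.04, 0.753 and 1.42 CPM, and LAMC3 and LAMB4 remained at or below 1.35 CPM.

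The window of LAMB1, the laminin of 10 CPM or more with the largest difference, held no AP-1 letters and 4 GC boxes, at −213, −205, −88 and −84 bases, of which the last 2 overlap. LAMB1 lies at chr7:107923799-108003255 on the minus strand of GRCh38. The window is chr7:108003112-108003411 on the minus strand of GRCh38.p14 (RefSeq), with GC boxes in capitals.
LAMB1: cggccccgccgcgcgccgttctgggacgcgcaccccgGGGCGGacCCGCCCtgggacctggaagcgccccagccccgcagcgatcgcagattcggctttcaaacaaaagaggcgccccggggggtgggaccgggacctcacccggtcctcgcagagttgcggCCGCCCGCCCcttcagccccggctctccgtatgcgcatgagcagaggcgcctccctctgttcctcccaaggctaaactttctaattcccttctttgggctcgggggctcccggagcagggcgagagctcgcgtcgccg

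The main laminin receptors had small differences. ITGA6 stood at 983, 1176, 1045 and 889 CPM, with overlapping groups (log2 difference −0.16 ± 0.16, adjusted p = 0.734, edgeR). ITGA3 stood at 1283, 1349.9, 1212 and 1126 CPM, lower without overlap in the libraries labelled as knockdown (−0.17 ± 0.13, adjusted p = 0.658, edgeR). ITGB4 stood at 1879, 2145, 1609.8 and 1634 CPM, also lower without overlap, by −0.22 between unprefixed libraries and −0.39 between SP-prefixed ones on the log2 scale. Its adjusted p was 0.463 without and 0.266 with the prefix term (edgeR, −0.31 ± 0.14 and −0.31 ± 0.12). ITGB1 stood at 1829, 1857, 2231 and 1845 CPM, with only the unprefixed library labelled as knockdown above the rest (0.15 ± 0.15, adjusted p = 0.747, edgeR). For the laminin receptors the ITGB4 level per kilobase was 1.85, 1.76, 1.49 and 1.78 times that of ITGA6.

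The more abundant collagen and fibronectin receptors overlapped between groups. ITGA2, the alpha chain of alpha2beta1, stood at 318, 409, 385 and 311 CPM, with opposite signs in the 2 pairs (0.27 and −0.39) and a log2 difference of −0.06 ± 0.17 (adjusted p = 0.923, edgeR). ITGA5 stood at 34.8, 47.8, 43.7 and 40.5 CPM (0.03 ± 0.18, adjusted p = 0.968, edgeR). The other collagen-binding chains were low: ITGA1 at 5.33 to 5.95 CPM, ITGA10 at 4.50, 3.19, 2.43 and 2.53 CPM, and ITGA11 at 3.04, 1.55, 3.01 and 1.21 CPM. Both SP-prefixed libraries were the low ones for ITGA11, and ITGA10 was lower without overlap in the libraries labelled as knockdown. ITGA7, a laminin receptor of muscle, stood at 2.07, 1.74, 1.39 and 1.26 CPM. ITGA2B, the alpha chain of the platelet receptor, had 6 to 13 counts in each library.

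The receptors that activate latent TGF-beta share the alpha chain ITGAV, and their beta chains did not differ in 1 direction. ITGB8 stood at 26.1, 21.1, 39.2 and 34.7 CPM, and both libraries labelled as knockdown were above both controls. It was 1.502-fold higher between unprefixed libraries and 1.64-fold between SP-prefixed ones, the largest positive difference among members above 10 CPM (log2 0.65 ± 0.17). Its adjusted p was 0.261 without and 0.076 with the prefix term (edgeR). ITGB6 stood at 216, 179.9, 207 and 129 CPM, with overlap, and the SP-prefixed library labelled as knockdown was lowest (−0.24 ± 0.23, adjusted p = 0.724, edgeR). ITGB8 over ITGB6, per kilobase, was 0.0506 and 0.0493 in the controls against 0.0796 and 0.113. ITGAV stood at 193, 227, 272 and 225 CPM (0.24 ± 0.15, adjusted p = 0.592, edgeR). ITGB5, its partner for vitronectin, stood at 48.6, 40.2, 48.0 and 39.5 CPM (−0.02 ± 0.17, adjusted p = 0.973, edgeR). Groups overlapped for both.

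The window of ITGB8, chr7:20330650-20330949 on the plus strand of GRCh38.p14 (RefSeq), lies at the start of the gene (chr7:20330702-20415754) and is printed as that of the beta chain with the largest positive difference, with its 2 GC boxes in capitals at −232 and −49 bases.
ITGB8: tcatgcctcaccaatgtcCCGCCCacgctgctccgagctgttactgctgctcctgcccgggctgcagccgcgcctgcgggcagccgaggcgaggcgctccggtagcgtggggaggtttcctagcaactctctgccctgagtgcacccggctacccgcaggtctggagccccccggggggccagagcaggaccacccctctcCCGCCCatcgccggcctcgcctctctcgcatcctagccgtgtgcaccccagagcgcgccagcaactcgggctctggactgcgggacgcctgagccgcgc

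ITGB7 and ITGB2, best known from leukocytes, had the largest negative differences among the 7 tested integrin beta chains. ITGB7, which pairs with alpha4 or alphaE, fell in the fit with the prefix term. It stood at 10.4, 5.33, 3.99 and 2.63 CPM, from 235, 107, 69 and 50 counts. Each library labelled as knockdown was below each control, and within each group the unprefixed library was the higher one. The log2 difference was −1.21 ± 0.23 with the prefix term (adjusted p = 0.035, edgeR with Benjamini-Hochberg adjustment), and −1.25 ± 0.38 without it (adjusted p = 0.323). Within pairs it was −1.27 for the unprefixed and −0.90 for the SP-prefixed libraries. The counting intervals of the groups overlapped, and with DESeq2 and the prefix term the adjusted p was 0.143. Over all 9 other settings with that term it ran from 3.53e-05 to 0.143.

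A limit applies to this gene. The exons of ITGB7 share 1886 bases, 42.1% of its exon length, with ZNF740 on the opposite strand, and whether counting used the strand is not given in the sources used here. Reads of the 2 genes therefore cannot be told apart there. ZNF740 stood at 38.4, 53.4, 36.3 and 38.9 CPM, with a log2 difference of −0.27 and an adjusted p of 0.468 (edgeR, prefix term).

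ITGB7 lies at chr12:53191318-53207307 on the minus strand of GRCh38. Its window, chr12:53207202-53207501 (RefSeq, GRCh38.p14), is printed for the called gene and holds none of the 4 motifs searched.
ITGB7: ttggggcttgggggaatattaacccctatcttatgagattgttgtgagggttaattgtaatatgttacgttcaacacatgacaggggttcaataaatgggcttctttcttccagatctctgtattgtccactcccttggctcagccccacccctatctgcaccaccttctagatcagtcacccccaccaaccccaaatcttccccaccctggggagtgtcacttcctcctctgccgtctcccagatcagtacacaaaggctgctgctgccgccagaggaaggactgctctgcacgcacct

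ITGB2, the beta chain of the leukocyte integrins, stood at 49.1, 42.0, 22.5 and 32.1 CPM. Both libraries labelled as knockdown were below both controls, by −1.11 between unprefixed libraries and −0.38 between SP-prefixed ones (log2). The edgeR difference was −0.74 ± 0.20 without the prefix term (adjusted p = 0.283) and −0.75 ± 0.19 with it (adjusted p = 0.092). ITGB2 shares 303 exon bases with ITGB2-AS1 on the opposite strand, which stood at 15.7, 7.88, 7.47 and 8.80 CPM. Its leukocyte partners ITGAL, ITGAM and ITGAD were too low to test and ITGAX stood at 0.405 to 0.580 CPM. Of the 5 leukocyte markers, PTPRC had at most 2 counts in any library. LYZ had 44, 5, 9 and 0 counts and made up most of the marker sum in the unprefixed control. CD14 had 15, 15, 8 and 4 counts, lower without overlap in the libraries labelled as knockdown. ITGAE stood at 13.8, 9.92, 14.7 and 15.8 CPM, higher by a narrow gap (0.36 ± 0.21, adjusted p = 0.558, edgeR), and shares 427 exon bases with HASPIN on the opposite strand. The leukocyte marker sum overlapped between groups. It was highest in the unprefixed control and lowest in the SP-prefixed library labelled as knockdown, as ITGB7 was. ITGB2 was also highest in the unprefixed control but lowest in the unprefixed library labelled as knockdown. The part of the marker sum in the ITGB7 and ITGB2 values was not tested.

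**Figure D3:**
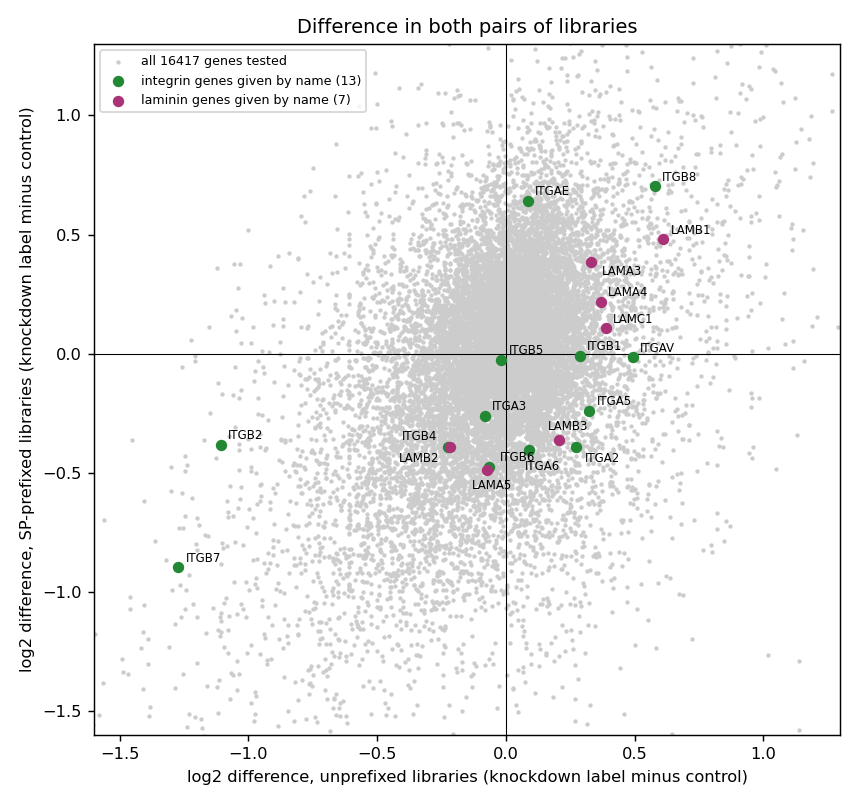
Log2 difference between the library labelled as knockdown and the control within the unprefixed pair (horizontal axis) and the SP-prefixed pair (vertical axis), with all 16417 tested genes in grey, 13 integrins in green and 7 laminins in purple; 189 grey genes lie outside the axes. ITGB7 and ITGB2 lie low in both pairs and ITGB8, LAMB1 and LAMA3 high in both, while ITGA2, ITGA5, ITGA6, ITGAV, ITGB1 and LAMB3 have opposite signs in the 2 pairs.

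The prefix itself was set against the members, because it marks a library in each group. By distance over all tested genes the libraries did not pair throughout by prefix or by group. The median absolute log2 difference was 0.257 between the SP-prefixed libraries, the largest of any pair. It was 0.157 between the unprefixed libraries and 0.153 between those labelled as knockdown. The controls lay 0.225 apart. The unprefixed control was nearer than that to both libraries labelled as knockdown (0.157 to the unprefixed and 0.215 to the SP-prefixed library). In the fit with both terms 30 of 16417 genes passed an adjusted p of 0.05 for the prefix, 0.183%, and no member was among them. DESeq2, which gave no adjusted p for 6 of the 30, and limma-voom called no member either. At an unadjusted p under 0.05 the edgeR test held 6 of the 30 members, against 10.5% of all genes. LAMB3 was higher in the SP-prefixed libraries by 0.41 ± 0.15 (adjusted p = 0.376, edgeR), LAMA5 by 0.35 and LAMC1 by 0.33. ITGB7 was lower by −0.81 ± 0.23 (adjusted p = 0.233, edgeR), ITGB6 by −0.47 and ITGA11 by −1.13 ± 0.29. For 5 of these 6, all but ITGB7, the prefix difference was larger in size than that of the group in the same fit. The 6 were picked by their prefix p in that fit, so this does not weigh the prefix against the group over the members.

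Leaving out 1 library at a time in the fit without the prefix term moved the size of several differences. Such a fit leaves 1 library in a group, taken to vary like the other group, so only effect sizes are given. Without the unprefixed control the ITGB8 difference was 0.82 and that of LAMA5 −0.54. Without the SP-prefixed control the LAMA5 difference was −0.0014. ITGB7 had a difference of −0.68 without the unprefixed control. Without the SP-prefixed control ITGB7 had a difference of −1.65 and LAMB1 one of 0.70. Over the libraries left out, ITGB8 ran from 0.50 to 0.82 and LAMB1 from 0.41 to 0.70. The fit without the prefix term was also run in 9 other settings that kept all libraries. There the adjusted p (edgeR, DESeq2 or limma-voom) ran from 0.017 to 0.298 for ITGB8 and from 0.419 to 0.777 for LAMA5. For ITGB7 it ran from 0.000496 to 0.365 and for LAMB1 from 0.00693 to 0.328.

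Genes that work with integrins and laminins were compared by lists, which were chosen with earlier results of these data known. Shares over all genes are therefore given for reference and do not test a list. Of the listed genes the fit with the prefix term called 5, all higher in the libraries labelled as knockdown. In the fit without it edgeR called no gene of any list, with 5 adhesion plaque genes, 9 integrin ligands and 0 to 4 genes of each other list at an unadjusted p under 0.05, a share of 11.2% over all genes. Without that term DESeq2 called 4 integrin ligands (CCN1, COL6A1, COL6A2 and THBS1) and 2 adhesion plaque genes (FERMT2 and TNS1), and limma-voom called none. Most calls were among the integrin ligands, with 4 called of 18 tested, a median log2 difference of 0.39 and 10 at an unadjusted p under 0.05. Over all genes 0.512% were called higher, 15.1% had an unadjusted p under 0.05, and the median was −0.01. THBS1, the matrix protein thrombospondin-1, stood at 242, 232, 513 and 733 CPM. It rose by 1.37 ± 0.16 (adjusted p = 0.0085, edgeR). CCN1, a matricellular ligand of alphav and alpha6 integrins, stood at 79.9, 92.5, 153 and 194 CPM and rose by 1.01 ± 0.14 (adjusted p = 0.0115, edgeR). The type VI collagen chains COL6A3 and COL6A2 rose as well. COL6A3 stood at 9.17, 16.4, 20.6 and 30.9 CPM (1.03 ± 0.17, adjusted p = 0.0215, edgeR) and COL6A2 at 61.9, 83.9, 111 and 123 CPM (0.70 ± 0.15, adjusted p = 0.0455, edgeR). All 4 were higher in both libraries labelled as knockdown than in both controls.

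Of the 28 adhesion plaque genes, which link integrin tails to actin, 1 rose: TNS1, a tensin that binds beta tails, stood at 16.7, 11.9, 25.4 and 33.2 CPM (1.04 ± 0.22, adjusted p = 0.0455, edgeR). The median of the list was 0.15, and 6 of 28 had an unadjusted p under 0.05, beside 1.85% of all genes called and 15.1% at that unadjusted p. ZYX, FERMT2 and FLNA had differences of 0.57, 0.56 and 0.37, with adjusted p of 0.084, 0.083 and 0.156 (edgeR). The groups did not overlap for 12 of the 28 (42.9%), close to the 44.7% of all genes, and 11 of the 12 were higher. TNS1 and COL6A2 lay close to the threshold: with RLE scaling their adjusted p was 0.0536 and 0.0525 (edgeR). Over 9 other settings it ran from 3.14e-06 to 0.0565 for TNS1 and from 0.000544 to 0.0536 for COL6A2.

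The other 6 lists had no call for the group in the fit with the prefix term, in which 15.1% of all genes had an unadjusted p under 0.05. The 6 hemidesmosome genes, which include the members ITGA6 and ITGB4, had a median of −0.02. They held 1 at an unadjusted p under 0.05, the member ITGB4, and none of the others on that list was under it. Among 13 tested basement membrane partners, 5 had an unadjusted p under 0.05, 3 higher and 2 lower, and the median was 0.05. SPARC stood at 0.63 (adjusted p = 0.087), COL7A1, the anchoring fibril collagen that binds laminin-332, at 0.51 (adjusted p = 0.098) and NTN4, a netrin that binds laminin gamma chains, at −0.59 (adjusted p = 0.101), all by edgeR. Of 6 tested genes that hold or activate latent TGF-beta, 3 had an unadjusted p under 0.05, and LTBP4 stood at −0.63 (adjusted p = 0.112, edgeR); LRRC33 was not matched. The 13 non-integrin laminin receptors, including dystroglycan, held 1 at an unadjusted p under 0.05, SDC2 at 0.72 (adjusted p = 0.195, edgeR). The 7 tested laminin processing genes held 2, MMP2 at 0.47 and MMP14 at −0.39. The 9 tetraspanins that bind integrins held 2, CD9 at −0.54 and CD82 at −0.45. DESeq2 and limma-voom called none for the group in these 6 lists either. With the prefix term, lane 2 alone called COL7A1, NTN4, SPARC, LTBP4 and CD9 (edgeR), beside 627 of all 14790 genes. Without an expression filter edgeR called these and NID2, SDC2 and MMP2, beside 1115 of all 30366 genes. The remaining settings with that term called none in these lists. For the prefix, FRAS1, a basement membrane partner singled out after its values were seen, was called at 42.1, 115, 52.7 and 106 CPM (1.23 ± 0.16, adjusted p = 0.0435, edgeR). No gene at all was called for the prefix with RLE scaling, a 1 CPM filter or robust edgeR.

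**Figure D4:**
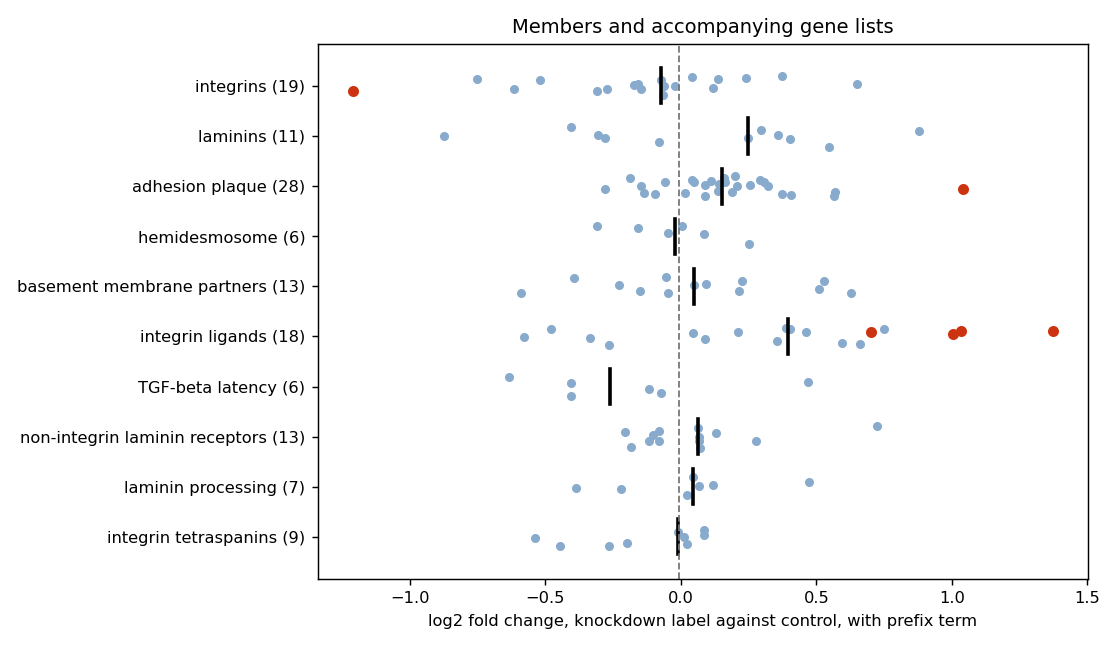
Log2 difference with the prefix term (horizontal axis) for each tested gene of the 8 lists and of the integrins and laminins, 1 dot a gene, red where the adjusted p is under 0.05, with a black bar at the median and a dashed line at the median of all tested genes. Integrin ligands hold 4 red dots and a median of 0.39, adhesion plaque genes 1 red dot, and integrins 1, ITGB7.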

How the data were processed

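The authors deposited raw counts for each gene in each lane. The submitters' processing notes name FastQC, HISAT2 and featureCounts, and the builds hg19 and GRCh38, with neither version nor role. All 38 members overlapped their GENCODE 29 span on GRCh38, and 35 had identical spans. RNA came from a mirVana kit with integrity numbers of 10 and went into TruSeq libraries, per the labels' protocols. All 37 mitochondrial genes had a count of 0. Columns were assigned to groups by name, with C read as control and PD2, a RefSeq synonym of PAF1, as knockdown.

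Lanes were summed. The test was edgeR's quasi-likelihood F test (edgeR 4.0.16, R 4.3.3) with TMM scaling, after filterByExpr at a minimum of 10 counts. Adjustment was by Benjamini and Hochberg over 16417 genes, at 0.05. The main fit had the group alone (2 residual degrees of freedom); a second fit added the name prefix (1 residual degree of freedom). CPM used TMM-scaled library sizes, and pair differences an offset of 0.5 CPM. Intervals and floors (3 counts) cover counting error only. Scripts were tested on simulated data. Alternatives were DESeq2 1.42.0, limma-voom 3.58.1, other scalings and filters, single lanes and leaving out libraries.

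Members described with their tests were those with a mean of 10 CPM or more, and those called in either fit, and the other members are given by their levels; of each list, up to 4 genes were named, called ones first and then the lowest p. A member and a marker gene are not reported here by name. The members, the lists and the prefix term were chosen with earlier results of these data known.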

Additional observations from a re-analysis of the deposited data

How the results depend on the processing

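Without an expression filter the main comparison called 3 integrins (ITGB2, ITGB7 and ITGB8) and 2 laminins (LAMB1 among them) in place of 0 and 0. The fit with the prefix term then called 3 integrins and 3 laminins in place of 1 and 0. For the prefix itself 2 integrins and 1 laminin were called in place of 0 and 0. Without the filter 36 members were tested, and these 3 comparisons called 902, 1115 and 601 of all 30366 genes. With the prefix term, DESeq2 and lane 1 alone called 0 integrins (ITGB7 at an adjusted p of 0.143 and, by edgeR, 0.0531). Lane 2 alone called 3 integrins and 1 laminin of 26 members tested, and 627 of all 14790 genes. Fits that left out 1 library had a group of 1 library, and only their effect sizes are given. Signs turned for genes near 0: ITGA5 was −0.033 with lane 2 alone (−0.025 with the prefix term), and ITGB5 was 0.047 with lane 1 alone (0.043 with the prefix term) and 0.00054 without a filter and with the prefix term. Over the libraries left out, ITGA2 ran from −0.22 to 0.13, ITGA5 from −0.17 to 0.28, ITGB5 from −0.16 to 0.13, ITGB6 from −0.61 to 0.063 and LAMB3 from −0.41 to 0.27. Without a turn in sign, LAMA5 ran from −0.54 to −0.0014, LAMC1 from 0.028 to 0.49 and ITGB1 from 0.0074 to 0.28. The cause was not tested.

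Over all genes the main fit called 0 of 16417, DESeq2 262 of 16417, and edgeR without a filter 902 of 30366. With the prefix term the count was 304, against 1115 without a filter and 627 with lane 2 alone. For the prefix it was 30, against 67 with DESeq2, 59 with library size scaling, 601 without a filter, 85 and 263 with single lanes, and 0 with RLE scaling, a 1 CPM filter or robust edgeR. No paired analysis was possible because the column names carry no library number by which replicates could be matched; the prefix term matches libraries by the start of their names alone. Leaving a library out of the fit with the prefix term leaves no residual degrees of freedom and was not run. With 2 libraries per group, counts near the floor and genes with shared exons limit what can be read.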

Other observations

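Some member genes lie next to each other. LAMB1 and LAMB4 lie 20292 bases apart on chromosome 7, LAMB1 at 293 to 503 CPM and LAMB4 at 0.299 to 0.738 CPM. ITGA1 and ITGA2 lie 30115 bases apart on chromosome 5, at 5.33 to 5.95 and 311 to 409 CPM. ITGAM, ITGAX and ITGAD lie in a row on chromosome 16, and none of the 3 exceeded 0.580 CPM.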
